A study of Mus musculus with 18 samples.

Results

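Cbx8 and 8 further genes of the polycomb machinery were followed in mouse splenic CD8 T cells on 3 diets. The 9 genes were taken by their symbols in GENCODE M21 out of 56748 gene IDs in the count files, and all 9 passed the filter on low counts that 13690 genes passed. Cbx8 was chosen because it was lower in HFD, with SW between the other diets. Its differences between diets are therefore given as a description, without a test. Cbx2, Cbx7, Ezh1, Ezh2, Eed, Suz12, Bmi1 and Rnf2 were chosen by their roles.

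RNA-seq of wild type CD8 T cells, sorted by flow cytometry and taken straight from the spleen, gave 6 libraries for each diet. HFD mice ate high fat diet for 12 weeks, SW mice (switched diet) had 6 weeks of high fat food followed by 6 weeks of normal food, and ND mice ate normal diet for 12 weeks. The study's title names lasting susceptibility to ferroptosis, a form of iron-dependent cell death, after a transient high fat diet. Whether each library stands for its own mouse is not in the labels, so p-values cover only the spread between these libraries, which may be technical.

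Polycomb proteins keep genes silent through chromatin. Polycomb repressive complex 2 (PRC2), built on EZH1 or EZH2 with EED and SUZ12, methylates lysine 27 of histone H3. Polycomb repressive complex 1 (PRC1), built on RNF2 or RING1 with a PCGF protein such as BMI1, adds ubiquitin to histone H2A, and in its canonical form it carries a chromobox (CBX) protein that reads the mark of PRC2. In CD8 T cells EZH2 is known for silencing memory-associated genes as effector cells form.

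Total counts ran from 11947339 to 16398340 per library. Cd8a, which encodes a chain of the CD8 co-receptor, had medians of 1497 CPM (counts scaled by the normalised library size) in HFD, 1510 CPM in SW and 1488 CPM in ND. Cd4 stayed at or under 1.32 CPM in every library, with medians of 0.8412 CPM in HFD, 0.5344 CPM in SW and 0.2065 CPM in ND. HFD replicate 4 stood apart from the other libraries on the first principal component of expression, at 55.0 against 6.31 or less, and it had the highest summed level of 8 erythroid genes. That sum was 11.5 to 337 CPM in HFD, 29.9 to 86.3 CPM in SW and 14.8 to 40.1 CPM in ND. Replicates 1 and 2 differed from replicates 3 to 6 across diets on the second component, where each replicate 1 or 2 was at 5.58 or higher and each replicate 3 to 6 at 4.59 or lower. Summed B cell markers were 733 to 866 CPM in HFD, 622 to 769.6 CPM in SW and 560.4 to 692 CPM in ND, with no overlap between HFD and ND, and 1 of the 5 tested B cell markers was called higher in HFD against ND. Summed myeloid markers were 27.8 to 35.9 CPM in HFD, 17.4 to 30.5 CPM in SW and 19.0 to 28.2 CPM in ND, with 0 of 7 tested markers called by edgeR and 4 at an unadjusted p under 0.05 in HFD against ND, a level that 14.9% of all tested genes reached. Of the plasma cell markers 1 of 3 and of the CD4 T cell markers 1 of 6 were called higher in HFD against ND, and edgeR called none of the tested NK, dendritic, erythroid or CD8 T cell markers. Among all tested genes edgeR called 0.665% higher in HFD against ND. All 6 tested erythroid genes had an unadjusted p under 0.05 in HFD against ND, and DESeq2 called 5 of them higher. Among all 13690 tested genes DESeq2 called 223 higher in that comparison. DESeq2 also called Lyz2 of the myeloid, Itgax and Siglech of the dendritic, Gzma of the NK and Cd5 of the CD8 T cell markers higher. The part of these markers in the results that follow was not tested, except that the erythroid level was entered as a covariate.

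Cbx8 lies on chromosome 11 of GRCm38, at chr11:119036305-119040969 on the minus strand. Its 300-base promoter window, at chr11:119040864-119041163, is shown because the results turn on this gene. It is given 5′ to 3′ on the gene's strand, from 250 bases before to 50 bases after the transcription start, from RefSeq (GRCm38.p6). Capitals mark the palindrome TGACGTCA, the consensus of the cyclic AMP response element, a motif chosen after the sequence was seen.
Cbx8 promoter: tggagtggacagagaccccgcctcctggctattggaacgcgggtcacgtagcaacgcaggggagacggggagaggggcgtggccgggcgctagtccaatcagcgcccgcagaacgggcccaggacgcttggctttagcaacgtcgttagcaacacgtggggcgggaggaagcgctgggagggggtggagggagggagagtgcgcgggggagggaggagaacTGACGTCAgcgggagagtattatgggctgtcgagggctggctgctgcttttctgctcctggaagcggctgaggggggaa
TGACGTCA starts at base 222 of the window. On either strand, 588 of 32851 mouse promoters of the same length hold it, or 1.79%, and Cbx8 is 1 of the 8 genes here with a promoter in the table to do so. The E-box CACGTG starts at base 153, a motif held by 7.15% of all promoters and by 2 of the 8, Cbx8 and Bmi1. CCAAT was found in 5 of the 8, against 37.4% of all promoters. The Cbx8 window holds 66.0% G and C bases, against a median of 52.7% over all promoters. The shares of all promoters are not matched for this. A match is a description of the letters, not evidence that a factor binds there.

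The mRNA of Cbx8, a canonical PRC1 subunit of the chromobox family, was lowest in HFD and intermediate in SW. Its lowest, median and highest levels were 11.9, 13.4 and 21.3 CPM in the 6 HFD libraries, 13.1, 18.9 and 20.9 CPM in the 6 SW libraries and 21.8, 25.8 and 30.2 CPM in the 6 ND libraries. All 6 HFD and all 6 SW libraries were below the lowest ND library, while HFD and SW overlapped. Means were 14.8 ± 3.46 CPM in HFD, 18.1 ± 2.65 CPM in SW and 25.9 ± 2.79 CPM in ND (SD, n = 6 each), so the HFD mean was 57.0% and the SW mean 69.6% of the ND mean. The raw counts behind these levels were 179 to 314 in HFD, 194 to 272 in SW and 333 to 394 in ND.

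On the log2 scale Cbx8 was -0.81 (SE 0.12) in HFD against ND, -0.52 (SE 0.12) in SW against ND and -0.29 (SE 0.12) in HFD against SW. The comparisons of HFD and of SW with ND share the ND libraries. Non-overlap below ND held for 1.00% of the 13690 tested genes in HFD and for 0.416% in SW, and nothing is read from this for Cbx8, which was chosen on these diets. HFD replicate 1 was the highest library of its diet, at 21.3 CPM, and SW replicate 6 the lowest of its diet, at 13.1 CPM. Leaving out each library in turn moved the HFD to ND difference between -0.95 and -0.76, and it was -0.77 without HFD replicate 4. Replicates 3 to 6 alone gave -0.99 and replicates 1 and 2 alone -0.50. For HFD against SW these subsets gave -0.40 and -0.11. With the erythroid level as a covariate the HFD to ND difference was -0.94, and with the summed level of 20 proliferation genes it was -0.89.

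**Figure D1:**
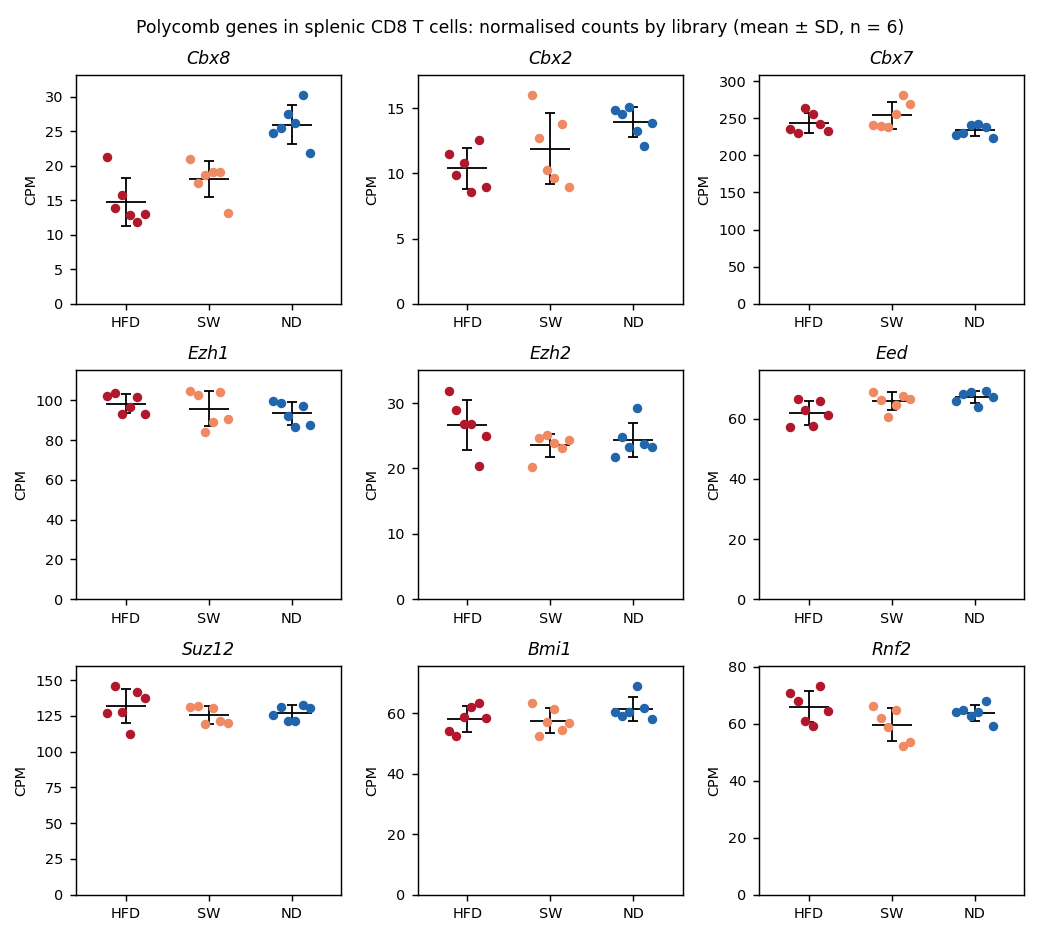
CPM (y axis, from 0) of the 9 polycomb genes in each library, by diet (x axis); points are libraries and bars mean ± SD of 6. Cbx8 lies at 21.3 CPM or less in every HFD and SW library and at 21.8 CPM or more in every ND library, while the diets overlap for each of the other 8 genes.

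Cbx2, another canonical chromobox subunit, is a neighbour of Cbx8, 5034 bases away on the opposite strand at chr11:119022962-119031270. It was measured at low level. Its lowest, median and highest levels were 8.54, 10.3 and 12.6 CPM in HFD, 8.94, 11.5 and 15.99 CPM in SW and 12.1, 14.2 and 15.1 CPM in ND. All 6 HFD libraries were below the ND mean, but the ranges overlapped, since HFD replicate 5 was above ND replicate 5. The difference of -0.43 (SE 0.13) in HFD against ND did not pass, with an adjusted p of 0.085 (edgeR quasi-likelihood test, Benjamini-Hochberg over all tested genes). It passed under 5 of 13 other settings, among them DESeq2 (adjusted p = 0.0395) and edgeR without a filter on low counts (adjusted p = 0.0445). It passed in 0 of the 18 edgeR fits with 1 library left out (adjusted p up to 0.161). In SW against ND it was -0.23 (SE 0.13, adjusted p = 0.798), and in HFD against SW -0.20 (SE 0.13, adjusted p = 0.582).

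Cbx7, of the chromobox subunits given here the one with the highest level, was not called on any diet. Its levels were 230 to 263 CPM in HFD, 238 to 281 CPM in SW and 224 to 242 CPM in ND. It was 0.06 (SE 0.05, 95% interval -0.05 to 0.16, edgeR adjusted p = 0.637) in HFD against ND. In SW against ND it was 0.12 (SE 0.05, 95% interval 0.018 to 0.225), with an edgeR unadjusted p of 0.0232 and an adjusted p of 0.633. All 6 SW libraries were above the ND mean, though the ranges overlapped. Cbx6, also a canonical chromobox subunit, was -0.07 (SE 0.06, adjusted p = 0.583) in HFD against ND and 0.04 (SE 0.06, adjusted p = 0.994) in SW against ND. Cbx7 shares 100 exon bases with Apobec3 on the opposite strand.

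**Figure D2:**
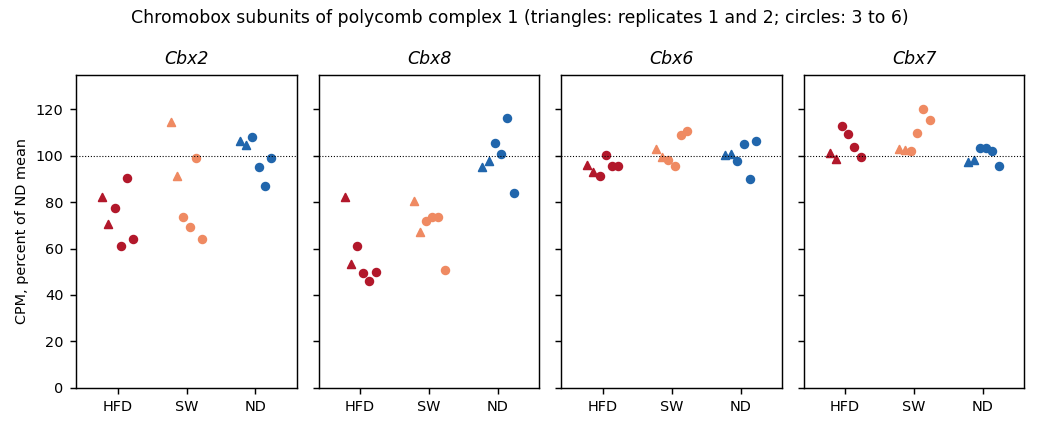
CPM of 4 polycomb chromobox genes in each library, in percent of the ND mean (y axis, from 0), by diet (x axis); triangles are replicates 1 and 2, circles replicates 3 to 6. Cbx8 averages 57.0% of the ND mean in HFD and 69.6% in SW, while Cbx6 and Cbx7 libraries of the 3 diets overlap.

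Per length, in the authors' deposited FPKM, Cbx8 was set beside Cbx2, Cbx6 and Cbx7. Of the summed FPKM of these 4 genes, the share of Cbx8 was 8.29 ± 1.80% in HFD, 9.52 ± 1.49% in SW and 13.8 ± 1.17% in ND (SD, n = 6 each). The share of Cbx7 was 77.4 ± 1.98% in HFD, 75.7 ± 2.34% in SW and 70.5 ± 0.366% in ND, and the share of Cbx6 was 9.30 ± 0.526% in HFD, 9.38 ± 0.414% in SW and 9.27 ± 0.741% in ND. The ranges of the Cbx7 share in HFD and in SW lay above that in ND. The shares sum to a fixed total and include Cbx8, so they are a description. The ratio of mean Cbx7 to mean Cbx8 FPKM was 9.31 in HFD, 7.98 in SW and 5.10 in ND. The summed FPKM of the 4 genes was 50.3 ± 2.32 in HFD, 53.5 ± 2.69 in SW and 52.7 ± 1.62 in ND.

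**Figure D3:**
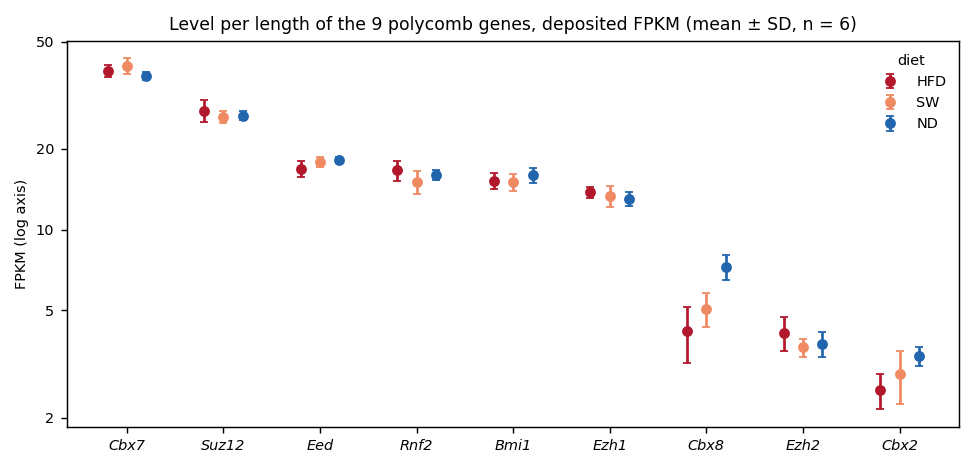
Deposited FPKM (y axis, log scale) of the 9 genes in order of level (x axis), with mean ± SD of 6 libraries for each diet. Cbx7 is highest and Cbx2 lowest on every diet, and the Cbx8 mean is 4.18 FPKM in HFD, 5.08 FPKM in SW and 7.29 FPKM in ND.

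In that order of FPKM over all 18 libraries Cbx7 came first, at 35.6 to 44.1, above Suz12 at 23.4 to 30.8 and Eed at 15.5 to 18.7, with no overlap between these 3. Rnf2 at 12.9 to 18.4, Bmi1 at 13.8 to 17.97 and Ezh1 at 11.7 to 14.6 overlapped their neighbours in the order. Cbx8 at 3.36 to 8.47, Ezh2 at 3.13 to 4.96 and Cbx2 at 2.07 to 3.88 overlapped each other, and all 3 lay below Ezh1 in every library.

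The core of PRC1 showed no called difference. Bmi1, a PCGF subunit, had 52.5, 58.6 and 63.5 CPM as lowest, median and highest level in HFD, 52.7, 57.1 and 63.3 CPM in SW and 58.1, 60.4 and 68.9 CPM in ND. Its difference was -0.08 (SE 0.06, 95% interval -0.20 to 0.05, edgeR adjusted p = 0.603) in HFD against ND and -0.09 (SE 0.06, adjusted p = 0.863) in SW against ND. Rnf2, the catalytic RING subunit, had 59.1, 66.3 and 73.1 CPM in HFD, 52.4, 60.5 and 66.3 CPM in SW and 59.4, 64.1 and 68.1 CPM in ND. The libraries of the 3 diets overlapped for both genes. Rnf2 was 0.05 (SE 0.06, adjusted p = 0.793) in HFD against ND and -0.10 (SE 0.07, adjusted p = 0.86) in SW against ND. In HFD against SW it was 0.15 (SE 0.06, 95% interval 0.01 to 0.28), with an edgeR unadjusted p of 0.0322 and an adjusted p of 0.399. Rnf2 shares 158 exon bases with Trmt1l on the opposite strand.

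The PRC2 genes showed no called difference either. Eed, whose product binds methylated lysine 27 and stimulates the enzyme, had 57.5, 62.1 and 66.5 CPM in HFD, 60.7, 66.6 and 69.1 CPM in SW and 64.0, 67.7 and 69.3 CPM in ND. All 6 HFD libraries were below the ND mean, but the ranges overlapped. It was -0.12 (SE 0.05, 95% interval -0.22 to -0.01) in HFD against ND, with an unadjusted p of 0.0308 and an edgeR adjusted p of 0.276. Suz12, a structural subunit, had 112 to 146 CPM in HFD, 119 to 132 CPM in SW and 121 to 133 CPM in ND, with a difference of 0.05 (SE 0.06, adjusted p = 0.716) in HFD against ND and -0.02 (SE 0.06, adjusted p = 0.998) in SW against ND. HFD replicate 4 was the lowest of the 18 libraries for Suz12.

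Of the 2 catalytic subunits, Ezh1, the form that predominates in resting cells, was the more abundant per length. Mean FPKM of Ezh1 was 3.32 times that of Ezh2 in HFD, 3.66 times in SW and 3.45 times in ND. Ezh1 had 93.2 to 104 CPM in HFD, 84.0 to 105 CPM in SW and 86.4 to 99.9 CPM in ND, and was 0.07 (SE 0.06, 95% interval -0.05 to 0.19, edgeR adjusted p = 0.605) in HFD against ND. Ezh2, the form of dividing cells, had 20.4, 26.8 and 31.9 CPM in HFD, 20.3, 24.1 and 25.2 CPM in SW and 21.7, 23.5 and 29.2 CPM in ND. HFD held both high and low libraries, and the diets overlapped. Ezh2 was 0.13 (SE 0.09, 95% interval -0.06 to 0.32, adjusted p = 0.539) in HFD against ND, -0.05 (SE 0.09, adjusted p = 0.995) in SW against ND and 0.18 (SE 0.09, adjusted p = 0.477) in HFD against SW.

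Summed proliferation markers were 720 to 870 CPM in HFD, 662 to 732 CPM in SW and 702 to 745 CPM in ND. None of the 20 genes was called by edgeR, and DESeq2 and limma-voom also called 0 in HFD against ND. In SW against ND limma-voom called 0 and DESeq2 called 1 lower, Pcna. DESeq2 called 31 of the 13690 tested genes lower there. In HFD against ND 19 of the 20 were above 0 (median 0.301, against 0.0081 over all tested genes), and 4 had an unadjusted p under 0.05. In HFD against SW 20 were above 0 (median 0.332), and 7 had an unadjusted p under 0.05. In SW against ND 7 were above 0 and 13 below, with 2 at that level. Of all tested genes 14.9%, 11.1% and 6.81% reached it in these 3 comparisons, in that order. Over the 18 libraries, with each diet centred on its own mean, Ezh2 had Pearson's r of 0.469 with the summed proliferation level (2-sided permutation p = 0.0532) and Spearman's rho of 0.286 (permutation p = 0.25). Adjusted over the 9 genes tested this way, these were 0.387 and 0.563. Without HFD replicates 1 and 3, the libraries farthest from the median, r was 0.318. Within replicates 3 to 6 it was 0.282 and within replicates 1 and 2 it was 0.006. With libraries permuted within diets only, as the centring requires, the p of this r was 0.14 (adjusted 0.722). None of the 9 relations passed over the 18 libraries either way.

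**Figure D4:**
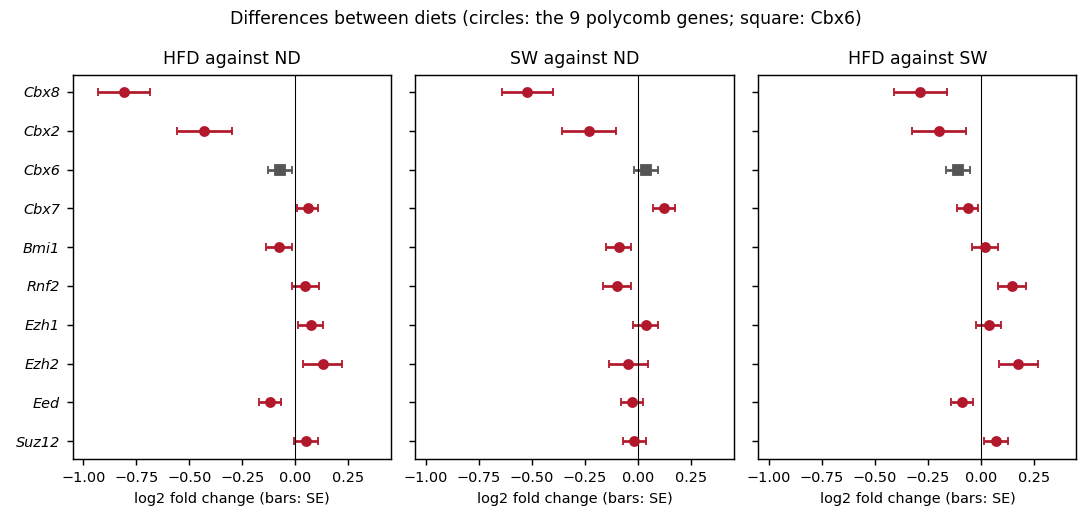
Log2 fold change (x axis) with its SE (bars) for the 9 polycomb genes (circles) and for Cbx6 (square) in the 3 comparisons. Cbx8 is at -0.81, -0.52 and -0.29, and the genes from Cbx6 downwards lie within 0.18 of 0 in each comparison.

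Among the 8 genes other than Cbx8, 0 were called by edgeR in any comparison, with 2 at an unadjusted p under 0.05 in HFD against ND, 1 in SW against ND and 1 in HFD against SW. The share called among all tested genes was 1.62% in HFD against ND, 0.0146% in SW against ND and 0.124% in HFD against SW. At an unadjusted p under 0.05 it was 14.9% in HFD against ND, 6.81% in SW against ND and 11.1% in HFD against SW. DESeq2 called 1 of the 8, Cbx2, in HFD against ND and limma-voom called 0. Of the 13690 tested genes DESeq2 called 471 and limma-voom 359 in that comparison. The median difference of the 8 was 0.05 in HFD against ND and -0.04 in SW against ND, beside medians of 0.01 and 0.00 over all tested genes.

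Canonical PRC1 was also viewed as a list of 13 genes, of which 12 were tested and Scml2 was too low. Among the 11 tested genes other than Cbx8, edgeR called 0 in HFD against ND and 0 in SW against ND, with 1 at an unadjusted p under 0.05 in each, Cbx2 in HFD against ND and Cbx7 in SW against ND. The median of all 12, Cbx8 included, was -0.07 in HFD against ND and -0.04 in SW against ND. The polyhomeotic genes Phc1, Phc2 and Phc3 were at 0.04, 0.03 and -0.08 in HFD against ND, and Ring1, which encodes the alternative RING subunit, at -0.10 (adjusted p = 0.453). Of these 11 genes DESeq2 called 1 lower in HFD against ND, Cbx2, and 0 in SW against ND, and limma-voom called 0 in both. Over all 13690 tested genes DESeq2 called 248 lower in HFD against ND.

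Variant PRC1 lacks the chromobox subunits of canonical PRC1. Of its 13 listed genes 0 were called by edgeR in HFD against ND and 1 had an unadjusted p under 0.05. That gene was Auts2, which encodes an activating partner of a variant PRC1, at 3.19 ± 0.658 CPM in HFD and 4.18 ± 0.734 CPM in ND (SD, n = 6 each), a difference of -0.39 (SE 0.18, adjusted p = 0.293). Pcgf6, a PCGF subunit, was -0.14 (SE 0.07, adjusted p = 0.378). Of 12 PRC2 genes 0 were called, with 1 at an unadjusted p under 0.05, Eed, and Phf1, which helps PRC2 bind chromatin, was -0.09 (SE 0.05, adjusted p = 0.422). The medians of these lists were -0.01 and 0.03. DESeq2 and limma-voom called 0 genes of either list.

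Of 12 enzymes that oppose polycomb marks edgeR called 0, and 0 had an unadjusted p under 0.05 in HFD against ND. Kdm6a, a demethylase of lysine 27, was 0.12 (SE 0.07, adjusted p = 0.414) and Ash1l, a trithorax-group methyltransferase, was -0.16 (SE 0.08, adjusted p = 0.394). The 3 chromobox genes of heterochromatin protein 1 (HP1), which read another histone mark, served as a comparison within the gene family. Cbx5 was 0.12 (SE 0.06, adjusted p = 0.349), Cbx1 -0.04 (SE 0.05, adjusted p = 0.766) and Cbx3 -0.02 (SE 0.04, adjusted p = 0.869) in HFD against ND. DESeq2 and limma-voom called 0 of the enzymes and 0 of the HP1 genes.

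**Figure D5:**
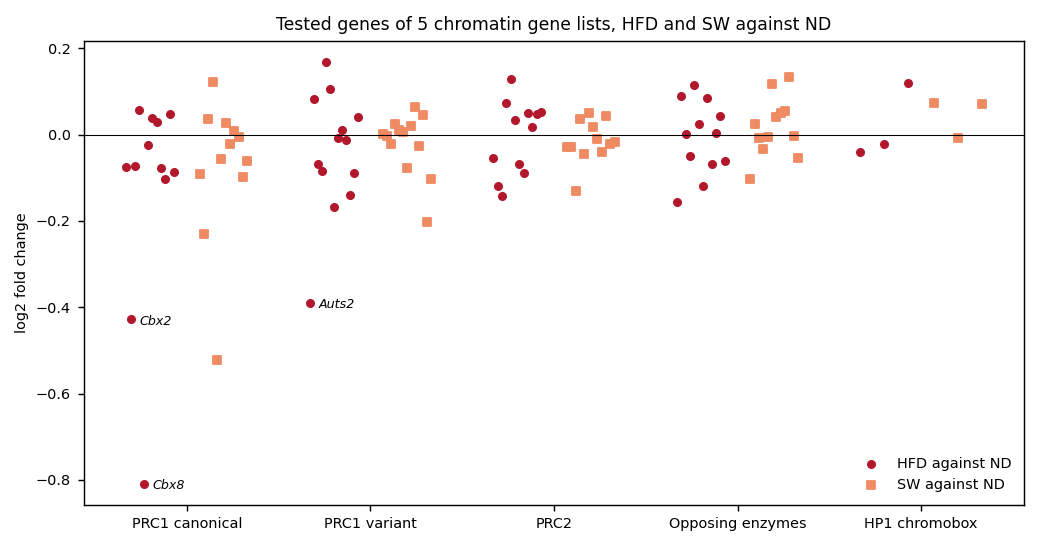
Log2 fold change (y axis) of each tested gene of 5 chromatin gene lists (x axis), with HFD against ND as circles and SW against ND as squares, which share the ND libraries; genes below -0.25 in HFD against ND are named. Cbx8 at -0.81, Cbx2 at -0.43 and Auts2 at -0.39 are the lowest, and the other genes lie between -0.17 and 0.17 in HFD against ND.

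Classical polycomb targets were mostly too low to test. Of 15 developmental and cell cycle inhibitor genes, such as Hox genes and Cdkn2a, 2 passed the filter and 13 did not. The highest count of any of those 13 in any library was 18, and Hoxd4 and Nkx2-5 had no count in any library. The 2 tested genes are transcription factors of the Hox clusters. Hoxa7 had 0.837 ± 0.236 CPM in HFD, 1.16 ± 0.347 CPM in SW and 1.59 ± 0.538 CPM in ND, a difference of -0.91 (SE 0.30, edgeR adjusted p = 0.118) in HFD against ND. Hoxb4 had 2.86 ± 0.637 CPM in HFD, 3.63 ± 0.812 CPM in SW and 3.95 ± 0.955 CPM in ND (SD, n = 6 each), a difference of -0.46 (SE 0.20, adjusted p = 0.276). Neither was called and both overlapped between diets.

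Of 9 memory-associated genes that PRC2 is known to silence in effector CD8 T cells, 1 was called higher and 1 lower in HFD against ND, and 6 had an unadjusted p under 0.05. In HFD against ND 8 of the 9 were above 0 and 1 below (median 0.127, against 0.0081 over all tested genes). The same counts held in HFD against SW, while in SW against ND 5 were above 0 and 4 below. Of all tested genes 0.665% were called higher, 0.957% were called lower and 14.9% had an unadjusted p under 0.05. In SW against ND edgeR called 0, with 2 at an unadjusted p under 0.05, beside 6.81% of all tested genes. Il7r, the receptor chain for the survival cytokine IL-7, had 634, 801 and 953 CPM as lowest, median and highest level in HFD, 566, 643 and 715 CPM in SW and 549, 569 and 650 CPM in ND. It rose in HFD against ND by 0.43 (SE 0.09, adjusted p = 0.0173), above the ND mean in 6 of 6 libraries, although the ranges overlapped. The call was lost without a filter on low counts (adjusted p = 0.0713) and within replicates 1 and 2 (0.24, adjusted p = 0.716).

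Id3, an inhibitor of E-protein transcription factors that marks memory-forming cells, had 24.1, 33.5 and 40.6 CPM in HFD, 32.5, 34.3 and 38.4 CPM in SW and 41.7, 46.6 and 50.3 CPM in ND. As with Cbx8, no HFD and no SW library reached the ND range. Id3 fell in HFD against ND by 0.50 on the log2 scale (SE 0.10, edgeR adjusted p = 0.00997). In SW against ND it was -0.41 (SE 0.10, adjusted p = 0.133). This passed in 5 of 13 other settings, among them DESeq2 (adjusted p = 0.0285), and in 0 of the 18 edgeR fits with 1 library left out (adjusted p up to 0.308). The HFD call was lost within replicates 1 and 2 (-0.56, adjusted p = 0.423). Tcf7, the transcription factor TCF1 of naive and memory cells, was 0.15 (SE 0.05, adjusted p = 0.101) in HFD against ND and was called higher by DESeq2. Klf2, which keeps T cells circulating, was 0.31 (SE 0.11, adjusted p = 0.176). In bulk samples fewer cells of a type and less RNA per cell cannot be told apart.

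Within diets, the genes whose levels went most like Cbx8 over the 18 libraries, out of 10835 compared, were Gypc (r = 0.865), Pdp1 (r = 0.855), Ptger4 (r = 0.852), Tiparp (r = 0.845) and Zfp46 (r = 0.842). These are Pearson correlations of log2 CPM centred on each diet, given as a description, and the libraries share depth and the split of replicates 1 and 2 from 3 to 6. The most alike gene was Prkdc for Cbx2 (r = 0.881), Slc44a2 for Cbx7 (r = 0.878), Aff3 for Ezh1 (r = 0.909), Tpx2 for Ezh2 (r = 0.765), Dusp11 for Eed (r = 0.844), Zfp128 for Suz12 (r = 0.835), March5 for Bmi1 (r = 0.794) and Tmed7 for Rnf2 (r = 0.857). Tpx2 encodes a spindle protein of dividing cells. Among the 36 pairs of the 9 genes, r ran from -0.58 to 0.68 with a median of 0.016. The r of Cbx8 with Cbx2 was 0.362.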

How the data were processed

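The authors deposited raw counts per gene for each of 18 libraries, with no normalization, and FPKM values per gene for each library. Per the submitters' processing notes, fastp was used with the builds GRCm38 and mm10. The alignment program, the counter and the annotation release were not given in the sources used here. Per the labels' protocols, poly-T selected RNA was primed with random hexamers. Symbols and coordinates are from GENCODE M21 (GRCm38), which held 52073 of the 56748 IDs. Gene lengths implied by FPKM and total counts were 0.9645 of M21 exon lengths in the median. Apart from this common factor, they equalled M21 exon lengths for 96.2% of 9487 genes, within a relative tolerance of 0.0001.

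The deposited counts entered the quasi-likelihood test of edgeR 4.0.16 (R 4.3.3; TMM, filterByExpr, robust fit, all 18 libraries, diet as the only factor), with Benjamini-Hochberg adjustment over 13690 genes and a threshold of 0.05. Fold changes are log2, with the SE of the fit. CPM use TMM factors. The correlations of library values used a prior count of 2 and 100000 permutations. Principal components were computed on log2 CPM. The steps were tested on simulated data. Alternatives were other size factors and filters, DESeq2 1.42.0, limma-voom (limma 3.58.1) with sample weights, subsets of replicates, covariates, and leaving out each library. The members, lists, the split of replicates and the tests were chosen with earlier results of these data known. Named genes were the 9 genes, Cbx2 as a neighbour of Cbx8, called genes and the 2 smallest p of each chromatin list, and the most correlated genes; Cbx6, Cbx3, Ring1, the Phc genes, Tcf7 and Klf2 were added after their values were seen. Some genes of the lists are not reported here and were left out of their lists' counts and sums. Depth limits low genes: the count of Cbx8 was at least 179 in each library, and counting error is a lower limit, since PCR copies were not marked.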

Additional observations from a re-analysis of the deposited data

Results flagged for a closer look

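Bmi1 in ND replicate 4, at 68.9 CPM, was the highest of the 6 ND libraries and lay far from the other 5, the highest of which was 61.6 CPM. It was 1 of 27 groups of 6 libraries examined for a library standing apart from the rest. Chance flags about 1 in 20 such groups. Without this library Bmi1 was -0.04 in HFD against ND and -0.05 in SW against ND, and neither value was called with or without it.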

How the results depend on the processing

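Cbx8 stayed lower in HFD and in SW than in ND in each alternative run. These runs used the same libraries on which Cbx8 was chosen for this order, so this is a description and lends the difference no support. The number of genes called in HFD against ND (222) was 471 with DESeq2, 359 with limma-voom, 535 with the replicate set as a factor, 5 within replicates 1 and 2, 87 with the erythroid covariate and 91 with the proliferation covariate, which was chosen after the data were seen; it ran from 89 (without ND replicate 5) to 301 (without HFD replicate 1) when 1 library was left out, with 145 without HFD replicate 4. In SW against ND (2 called) it was 1 with RLE and 1 with upper quartile factors, 31 without a filter, 52 with DESeq2, 29 with limma-voom, 19 with only those diets, 22 with the set factor, 5 within replicates 3 to 6, 0 within replicates 1 and 2, 15 with the erythroid and 0 with the proliferation covariate, and 0 to 16 with 1 library left out. In HFD against SW (17 called) it was 53 without a filter, 110 with DESeq2, 8 with limma-voom, 0 with only those diets, 116 with the set factor, 2 within replicates 1 and 2, 3 with the erythroid and 0 with the proliferation covariate, and 0 to 44 with 1 library left out. The cause was not tested.

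With the replicate number as a block, the calls numbered 598 in HFD against ND, 49 in SW against ND and 138 in HFD against SW. The labels do not say that a number marks a shared mouse or day. With each diet centred on its mean, same-numbered libraries of different diets correlated at -0.0315 to 0.219, over 0.1 in 7 of 18 pairs. Libraries of other numbers correlated over 0.1 in 6 of 42 pairs within the same replicate set (highest 0.168). Across the sets this was 0 of 48 pairs. Of 18 libraries, 5 were most like one of their own number, and how many would be so by chance was not tested. Under the block, Cbx2 was -0.44 in HFD against ND (adjusted p = 0.0234) and Auts2 was -0.0009 in SW against ND.

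Of 1860 alternative values of single genes, 42 changed sign, and none of these was larger than 0.123 in size. In HFD against ND these were Ezh2 at -0.0178 within replicates 3 to 6 and Cbx1 at 0.0129 within replicates 1 and 2. In SW against ND, replicates 1 and 2 alone gave Eed 0.0125, Suz12 0.0321, Auts2 -0.0407, Kdm6a 0.0276 and Hoxb4 0.0073, and replicates 3 to 6 alone gave Phf1 0.0258. The erythroid covariate gave Suz12 0.0141, Auts2 -0.028 and Kdm6a 0.0023, and the proliferation covariate gave Ezh2 0.0275, Auts2 -0.1227, Pcgf6 -0.0118 and Kdm6a 0.0178. In HFD against SW, replicates 1 and 2 alone gave Ezh1 -0.0045, Bmi1 -0.1119 and Phf1 0.0083, and the proliferation covariate gave Ash1l 0.0556 and Cbx5 -0.0174. With 1 library left out, the SW to ND ranges were -0.0762 to 0.0162 for Ezh2, -0.0564 to 0.0897 for Auts2, -0.0364 to 0.0165 for Phf1 and -0.0327 to 0.0232 for Kdm6a, and the HFD to SW ranges were -0.005 to 0.0567 for Ezh1 and -0.0154 to 0.0388 for Bmi1.

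The relation to the proliferation level was 0.228 for Cbx8, and -0.134 with values not centred on diet. Within replicates 3 to 6 it was -0.666 for Cbx8, -0.371 for Ezh1, 0.01 for Bmi1 and -0.505 for Rnf2. Within replicates 1 and 2 it was 0.841 for Cbx8, 0.631 for Cbx2, 0.664 for Cbx7, -0.121 for Ezh1 and 0.312 for Bmi1. For Suz12 it was -0.988 there, -0.65 within replicates 3 to 6 and -0.313 over the 18 libraries. With 2 centred libraries a diet, each pair mirrors itself, and exact 2-sided permutation within diets cannot give a p below 0.25. Permuted within diets, a choice made after the data were seen, none of the 9 relations passed after adjustment over the 18 libraries or in either subset.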
